A study of Mus musculus with 8 samples.

Results

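The genes described are 35 skeletal muscle genes with known fibre-type or sarcomere roles, chosen by symbol from a named list. That list was chosen with earlier results of these data known. Each of the 35 matched 1 probe set on the array, among 30701 genes measured. Signals come from forepaw skin of 8-week-old C57Bl/6 mice, 1 array per mouse. The Krt16 null group held 4 mice with paw lesions (2 males, 2 females) in whose Krt16 allele LacZ stands in place of the coding sequence. The Krt16 WT group held 4 littermates with normal paw skin (2 males, 2 females). Genotype and lesion cannot be told apart in this design, since every null mouse was lesional and no WT mouse was.

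Skeletal muscle contracts when myosin heads of the thick filament pull on the thin filament of actin, troponin and tropomyosin, and calcium released from the sarcoplasmic reticulum switches the thin filament on through the troponin complex. Fast (type II) and slow (type I) fibres use different paralogs of myosin, troponin and calcium pump genes, and mouse limb muscle is mostly fast. The tissue was taken off the whole paw as skin, per the labels, and these genes are textbook muscle genes rather than epidermal ones. In such bulk samples fewer muscle fibres in the piece taken and less RNA per fibre cannot be told apart. How much muscle each sample held was not tested.

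Levels are given as log2 RMA signal, and each difference is the null mean minus the WT mean, with its standard error (SE). Array values are listed as male 1, male 2, female 1 and female 2 of a genotype. In limma, an adjusted p under 0.05 (Benjamini-Hochberg, over all genes) counted as a call. Medians of the negative control probe sets, which mark the background, lay between 4.26 and 4.46. Krt16 itself had 6.83, 6.87, 6.89 and 6.99 in null arrays, against 8.48, 8.20, 7.05 and 9.66 in WT arrays. The genotypes did not overlap, though female WT 1, at 7.05, lay just above female null 2, at 6.99. The Krt16 difference of -1.45 (SE 0.44) missed the threshold (limma adjusted p = 0.0615).

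Upstream sequence is shown for 5 members to which the results return: Myoz2, which had the largest fall, the neighbouring fast myosin genes Myh4 and Myh1, which varied differently between arrays, and the fast and slow troponin C genes Tnnc2 and Tnnc1. The sequences are the 250 bases before the start of transcription in RefSeq, build GRCm38.p6, written 5′ to 3′ on the gene's strand. They lie at chr3:123034988-123035237 (minus strand), chr11:67237562-67237811 (plus), chr11:67199852-67200101 (plus), chr2:164779735-164779984 (minus) and chr14:31208062-31208311 (plus). Capitals mark the E-box CANNTG (the core site of myogenic bHLH factors), the MEF2 site, the CArG box (the site of serum response factor) and TATAAA, each searched on both strands.
Myoz2: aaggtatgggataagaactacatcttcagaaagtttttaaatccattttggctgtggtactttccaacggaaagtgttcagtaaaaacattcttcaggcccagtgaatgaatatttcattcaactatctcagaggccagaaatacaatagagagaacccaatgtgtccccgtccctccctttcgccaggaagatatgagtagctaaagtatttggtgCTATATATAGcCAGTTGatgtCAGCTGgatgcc
Myh4: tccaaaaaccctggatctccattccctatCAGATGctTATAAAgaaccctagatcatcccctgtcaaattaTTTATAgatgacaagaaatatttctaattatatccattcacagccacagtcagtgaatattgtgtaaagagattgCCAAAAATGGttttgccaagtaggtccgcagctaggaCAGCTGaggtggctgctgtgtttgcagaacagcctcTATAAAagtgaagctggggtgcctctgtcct
Myh1: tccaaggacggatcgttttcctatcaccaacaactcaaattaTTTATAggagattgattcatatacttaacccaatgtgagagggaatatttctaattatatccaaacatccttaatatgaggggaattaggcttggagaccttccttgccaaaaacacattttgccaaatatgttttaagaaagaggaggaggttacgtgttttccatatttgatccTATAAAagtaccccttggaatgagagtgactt
Tnnc2: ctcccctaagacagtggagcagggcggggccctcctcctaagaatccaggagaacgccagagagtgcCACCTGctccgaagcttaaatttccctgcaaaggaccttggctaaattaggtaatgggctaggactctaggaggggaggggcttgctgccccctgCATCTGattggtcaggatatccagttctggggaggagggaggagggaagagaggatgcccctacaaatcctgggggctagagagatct
Tnnc1: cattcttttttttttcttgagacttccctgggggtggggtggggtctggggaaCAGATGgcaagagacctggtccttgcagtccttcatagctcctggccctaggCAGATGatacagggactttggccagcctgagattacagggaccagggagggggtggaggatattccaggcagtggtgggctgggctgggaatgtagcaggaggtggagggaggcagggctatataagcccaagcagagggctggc
Myoz2 held a MEF2 site starting 33 bases before the start and E-boxes starting at 22 and 12 bases before it. Myh4 held a CArG box at -104, E-boxes at -221 and -67 and TATAAA at -213, -179 and -31. Myh1 held TATAAA at -208 and -32 and no E-box in this window. Tnnc2 had E-boxes at -183 and -88 and Tnnc1 at -197 and -145. RefSeq promoters matched 26 of the 35 genes, with 32 windows in all, some of them overlapping. E-boxes stood in 28 of these 32 windows (87.5%), against 66.2% of all 32851 promoters. MEF2 sites stood in 3 windows, those of Myoz2, Ttn and Xirp2 (9.38%, against 0.508% of all promoters), and CArG boxes in 4, those of Acta1, Myl3, Myh4 and Myom1 (12.5%, against 1.47%). TATAAA was found in 6 windows (18.8%, against 12.4%). A match to these letters is a description and not evidence of binding.

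The muscle genes were lower in null paw skin as a group. All 35 differences were below 0, 27 of the 35 genes were called lower and 0 were called higher, while 5.98% of all genes were called lower and 7.06% higher. The median difference of the 35 was -0.87, about 0.546-fold, against a median of 0.01 over all genes. Differences ran between -1.45 in Myoz2 and -0.16 in Myl3. In 27 of the 35 genes the arrays of the genotypes were fully apart, against 8.77% of all genes in which every null array lay under every WT array. The count of 27 depended on single arrays: leaving out male WT 1 gave 13, male null 2 gave 14, female null 1 gave 12 and female null 2 gave 17, and with a robust prior it was 16. In the 4 fits without an array 3.50%, 2.74%, 2.75% and 3.62% of all genes were called lower, and with the robust prior 6.02% were, close to the share without it, while the median of the 35 moved only between -0.98 and -0.67 over the 8 fits that left out 1 array. The 12 members called in all 8 of these fits were Acta1, Myh1, Myl1, Actn2, Atp2a1, Ttn, Neb, Myoz2, Myot, Mb, Eno3 and Trdn. The other 15 of the 27 were each called in 2 to 5 of the 8.

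**Figure D1:**
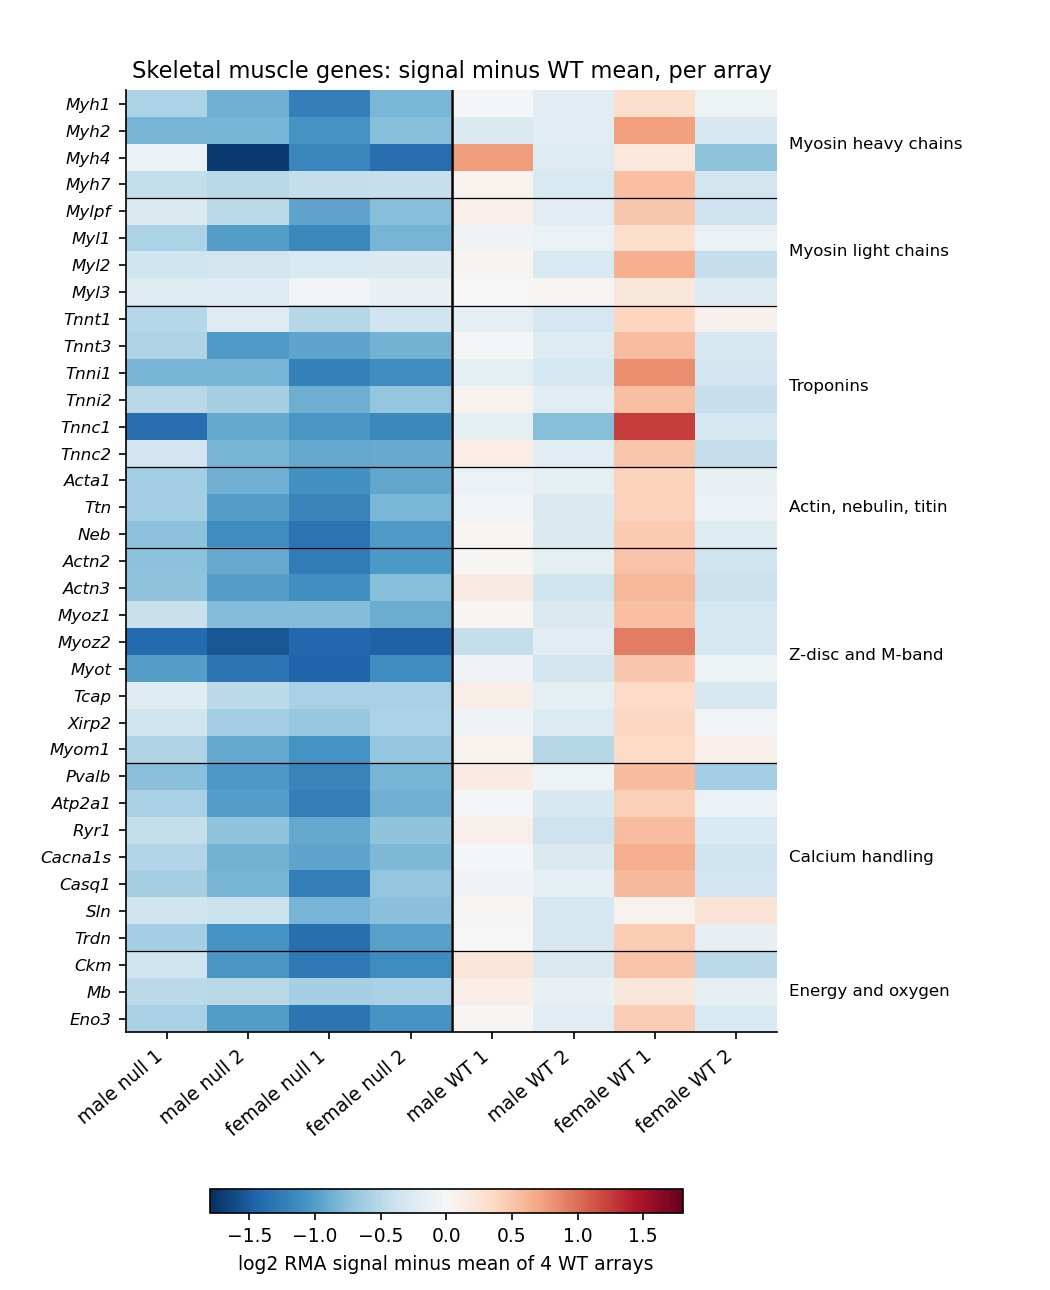
Signal of each of the 35 muscle genes (rows, grouped by role) in each array (columns, null left and WT right), as log2 RMA signal minus the mean of the 4 WT arrays. Null columns are mostly blue, with female null 1 darkest, and the female WT 1 column is red in nearly every row.

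The arrays differed from each other in the same way for most members. Relative to the WT mean of each gene, the mean of the 35 was -0.57 in male null 1, -0.84 in male null 2, -0.99 in female null 1 and -0.82 in female null 2. In WT arrays it was 0.01 in male WT 1, -0.25 in male WT 2, 0.50 in female WT 1 and -0.26 in female WT 2. The 2 genotypes did not overlap in this mean, though female WT 1 stood well above the other WT arrays. Female WT 1 was the highest of the 8 arrays for 33 of the 35 genes, the exceptions being Myh4 (male WT 1) and Sln (female WT 2). Female null 1 was the lowest array for 26 genes, and male null 1 was the highest null array for 28. After sex and genotype were removed, the median Pearson correlation over the 595 pairs of members was 0.862, a description over 8 arrays with 5 residual degrees of freedom. Female WT 1 is among these arrays. The correlation without it, and that of other genes, was not computed. Without female WT 1 the median difference was -0.67, and 29 of the 35 genes were called lower, against 6.07% of all genes.

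Myosin heavy chains are the motors of the thick filament, with Myh4 encoding the fastest type (IIb), Myh1 type IIx, Myh2 type IIa and Myh7 the slow type. Of these 4 genes Myh1 and Myh2 were called. Myh1 had 10.32, 10.03, 9.66 and 10.07 in null arrays, against 10.85, 10.70, 11.21 and 10.80 in WT arrays. Every null array was under every WT array, and Myh1 fell by 0.87 (SE 0.15, limma adjusted p = 0.00664). Myh2 had 9.51, 9.50, 9.26 and 9.57 in null arrays, against 10.08, 10.15, 11.08 and 10.05 in WT arrays, again without overlap (difference -0.88, SE 0.20, limma adjusted p = 0.0233). Its called fall was lost without male null 2, female null 1 or female null 2 (adjusted p 0.0547, 0.0784 and 0.0539).

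Myh4 behaved differently between arrays. It had 9.29, 7.69, 8.23 and 8.04 in null arrays, against 10.16, 9.18, 9.60 and 8.69 in WT arrays. The groups overlapped, because male null 1 lay above male WT 2 and female WT 2, and Myh4 was the only heavy chain gene whose highest array was male WT 1. Its difference of -1.09 (SE 0.35, 95% interval -1.89 to -0.30) was not called (limma adjusted p = 0.0755). Within both sexes the mouse numbered 1 was higher than the mouse numbered 2 in each genotype. With same-numbered mice of a sex as pairs, a replicate block, Myh4 was called lower (limma adjusted p = 0.00336). The labels do not say what a number shares, so this pairing is an assumption. Without male null 1 the difference was -1.40 (adjusted p = 0.029). Heavy chain genes are very alike in sequence, and cross-hybridization among them was not tested.

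Slow myosin was near background. Myh7 had 4.47, 4.42, 4.48 and 4.50 in null arrays, against 4.98, 4.64, 5.45 and 4.59 in WT arrays. These groups do not overlap, yet all null values stand within or just above the range of the negative control medians, and the difference of -0.45 (SE 0.16) was not called (limma adjusted p = 0.114).

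**Figure D2:**
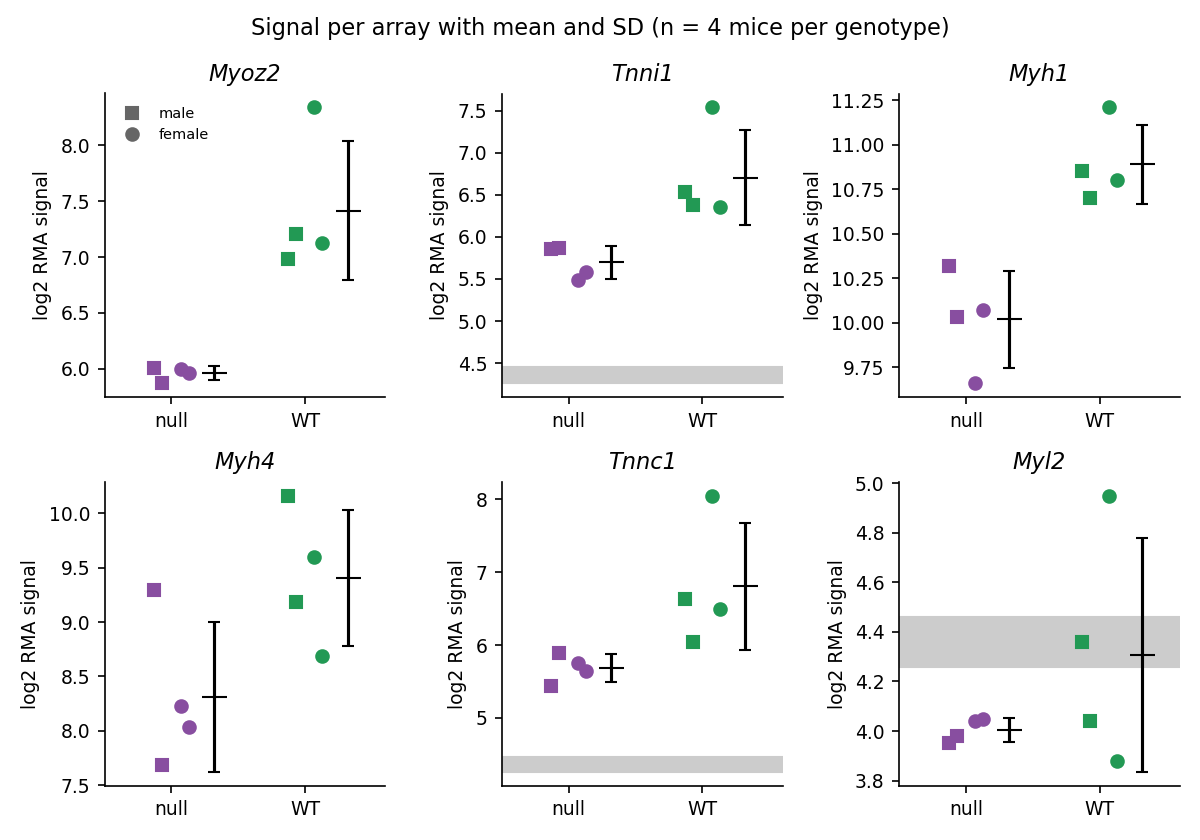
log2 RMA signal per array of Myoz2, Tnni1, Myh1, Myh4, Tnnc1 and Myl2, null left and WT right, squares for males and circles for females, with mean and SD of 4 mice. The grey band is the range of negative control medians, 4.26 to 4.46; Myl2 sits at or under it in all null arrays, and female WT 1 is the top circle of Myoz2, Tnni1, Myh1, Tnnc1 and Myl2.

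Myosin light chains clasp the neck of the heavy chain. Myl1 encodes the essential and Mylpf the regulatory light chain of fast fibres, and Myl3 and Myl2 are their slow and ventricular counterparts. Myl1 was the only light chain gene of the 4 to be called. It had 8.49, 8.06, 7.89 and 8.22 in null arrays, against 8.99, 8.93, 9.37 and 8.93 in WT arrays, with no overlap (difference -0.89, SE 0.14, limma adjusted p = 0.00482). Mylpf, at 7.12 to 7.81 in null arrays, against 7.70 to 8.56 in WT arrays, overlapped between groups and gave -0.61 (SE 0.19, limma adjusted p = 0.0705).

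Neither slow light chain gene gave a usable difference. Myl2 had 3.95, 3.98, 4.04 and 4.05 in null arrays, against 4.36, 4.04, 4.95 and 3.88 in WT arrays, and was under the negative control median in 6 of 8 arrays. Myl3 had 4.66, 4.65, 4.83 and 4.75 in null arrays, against 4.89, 4.91, 5.08 and 4.63 in WT arrays. Their differences were -0.30 (95% interval -0.73 to 0.13, limma adjusted p = 0.378) and -0.16 (95% interval -0.37 to 0.06, limma adjusted p = 0.344). At signals this close to background the size of a change is not measured.

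The troponin complex has a calcium sensor (troponin C), an inhibitory subunit (troponin I) and a tropomyosin-binding subunit (troponin T), each with a fast and a slow gene. All 3 fast genes were called lower, Tnnt3 by -0.84 (SE 0.18, limma adjusted p = 0.0182), Tnni2 by -0.67 (SE 0.18, adjusted p = 0.0419) and Tnnc2 by -0.75 (SE 0.20, adjusted p = 0.0391). Tnnt3 had 9.23, 8.75, 8.81 and 8.91 in null arrays, against 9.73, 9.53, 10.32 and 9.48 in WT arrays, without overlap, and Tnni2 had 6.27 to 6.65 in null arrays, against 6.74 to 7.69 in WT arrays. Tnnc2 had 8.97, 8.48, 8.39 and 8.41 in null arrays, against 9.45, 9.11, 9.81 and 8.88 in WT arrays. Male null 1 lay just above female WT 2, so the Tnnc2 groups overlapped. Tnni2 kept its call in only 2 of the 8 fits without 1 array, Tnnc2 in 4 and Tnnt3 in 5, with adjusted p up to 0.126, 0.118 and 0.0651, and Tnni2 also missed after repeated quantile normalization (adjusted p = 0.0541).

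Of the slow troponins, Tnni1 was called. It had 5.86, 5.87, 5.49 and 5.58 in null arrays, against 6.53, 6.38, 7.54 and 6.36 in WT arrays. The groups did not overlap, and Tnni1 fell by 1.0 (SE 0.24, limma adjusted p = 0.0278), though without male WT 1, male null 2, female null 1 or female null 2 the adjusted p was 0.0611, 0.0549, 0.0913 and 0.0744. Tnnc1, the troponin C of slow and cardiac muscle, had 5.44, 5.89, 5.76 and 5.65 in null arrays, against 6.64, 6.04, 8.05 and 6.49 in WT arrays. All null arrays were under all WT arrays, but female WT 1 stood far above the other WT arrays and the difference of -1.12 (SE 0.33) missed the threshold (limma adjusted p = 0.0542). Without female WT 1 it was smaller, at -0.72, and called (adjusted p = 0.0149), and it was also called with the replicate block (adjusted p = 0.041). Tnnt1, at 6.21 to 6.48 in null arrays, against 6.42 to 7.11 in WT arrays, overlapped between groups and gave -0.40 (SE 0.12, limma adjusted p = 0.0659).

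Fast and slow members were compared by centring each gene on its WT mean, since signals of different probe sets cannot be set against each other. Of the 5 fast members (Myh4, Myh1, Tnnt3, Tnni2, Tnnc2) 4 were called lower, with a median difference of -0.84. Of the 6 slow members (Myh7, Tnnt1, Tnni1, Tnnc1, Myl2, Myl3) 1 was called lower, with a median of -0.42. Over all genes 5.98% were called lower. Myh7, Myl2 and Myl3 lay near background, and without them, a choice made after seeing the data, the slow median was -1.0. The fast mean was -0.41, -1.01, -1.03 and -0.93 in null arrays, against 0.18, -0.21, 0.42 and -0.39 in WT arrays. The slow mean was -0.62, -0.51, -0.59 and -0.57 in null arrays, against -0.06, -0.32, 0.64 and -0.26 in WT arrays. Null arrays thus sat almost together in the slow mean, whereas male null 1 stood apart from the other null arrays in the fast mean and lay close to female WT 2. The SD over null arrays was 0.03, 0.05 and 0.08 for Myh7, Myl2 and Myl3, near background. It was 0.13, 0.19 and 0.19 for Tnnt1, Tnni1 and Tnnc1. How far genes near background narrow the slow mean was not tested.

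The fast mean minus the slow mean was 0.21, -0.50, -0.45 and -0.36 in null arrays (mean -0.27 ± 0.33 SD, n = 4), against 0.24, 0.11, -0.22 and -0.12 in WT arrays (SD 0.21, n = 4). The groups overlapped, male null 1 being among the highest arrays. With only the 3 slow members at least 1 log2 unit over the highest negative control median (Tnnt1, Tnni1, Tnnc1), a choice made after seeing the data, the same quantity was 0.49, -0.34, -0.11 and -0.05 in null arrays, against 0.34, 0.25, -0.40 and -0.19 in WT arrays. Its mean difference was then 0.00. The median difference of these 3 genes was -1.0, which is the value of Tnni1, with Tnnc1 at -1.12 and Tnnt1 at -0.40. Tnnt1, whose signal is well over background, differed by about as much as the median of all 6 slow members. The genotypes overlapped in the fast minus slow mean with either choice of slow members.

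**Figure D3:**
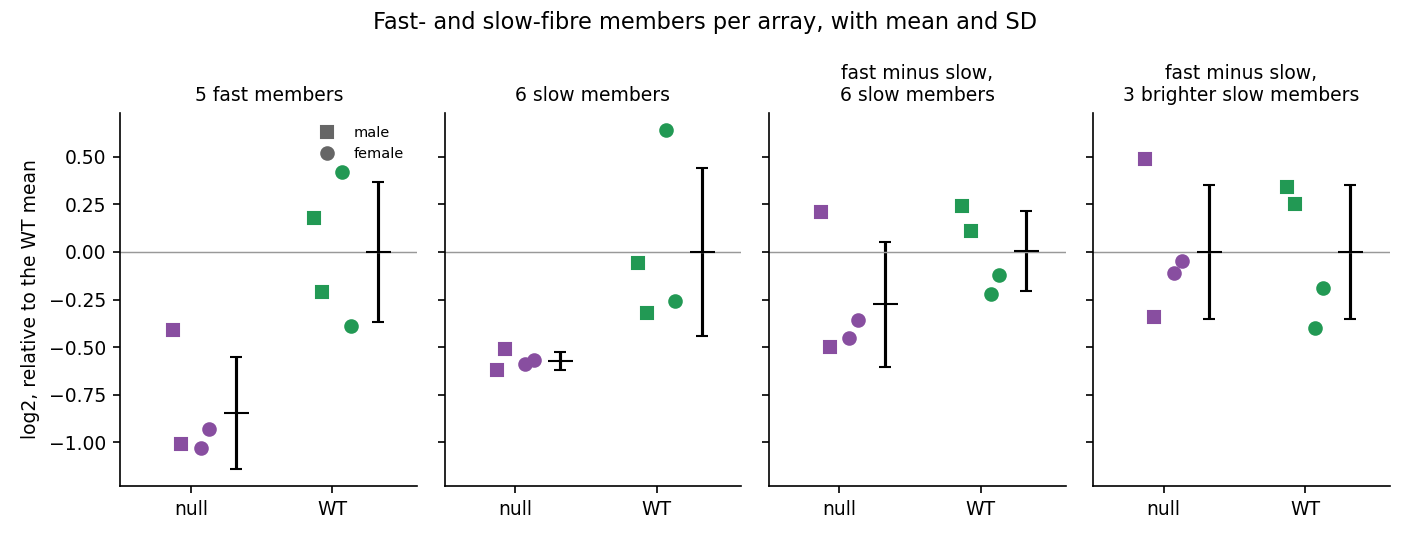
Mean of the 5 fast members, mean of the 6 slow members, and fast minus slow with 6 or with the 3 brighter slow members, per array, in log2 units relative to the WT mean, null left and WT right, squares for males and circles for females, with mean and SD of 4 mice. Null arrays are lower in the first and second panels and mix with WT arrays in the other panels.

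Fast and slow paralogs of the same protein did not shift in a common direction. Relative to WT, Tnni2 minus Tnni1 was 0.34, 0.23, 0.33 and 0.41 in null arrays, against 0.23, 0.13, -0.29 and -0.07 in WT arrays, so the fast gene fell less than the slow gene, with the nearest arrays of the genotypes both at 0.23. Tnnc2 minus Tnnc1 pointed the same way, with a mean of 0.37 ± 0.44 in null arrays, but ran between 0.08 and 1.02 there, against -0.75 to 0.56 in WT arrays, and so overlapped. Tnnt3 minus Tnnt1 pointed the other way, with a mean of -0.44 ± 0.31 and values of -0.77 to -0.02 in null arrays, against -0.35 to 0.16 in WT arrays. Myh4 minus Myh7 (-1.22 to 0.33 in null arrays, against -0.40 to 0.69 in WT arrays) and Mylpf minus Myl2 (-0.68 to 0.10, against -0.15 to 0.07) overlapped as well. Myl1 minus Myl3 was lower in every null array (-1.11 to -0.35, against -0.16 to 0.13 in WT arrays), where Myl3 is a gene near background. These 6 pairs carry no test.

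The thin filament actin and the giant proteins were uniform. Acta1, skeletal α-actin, had 9.61, 9.36, 9.13 and 9.29 in null arrays, against 10.12, 10.04, 10.64 and 10.09 in WT arrays. It fell by 0.88 (SE 0.15, limma adjusted p = 0.00613). Neb, which encodes nebulin along the thin filament, differed by -1.05 (SE 0.18, adjusted p = 0.00628), and Ttn, the spring that spans Z-disc to M-band, by -0.90 (SE 0.16, adjusted p = 0.00786). Neb had 9.24 to 9.84 in null arrays, against 10.31 to 11.05 in WT arrays, and Ttn 9.37 to 9.94 in null arrays, against 10.29 to 10.97 in WT arrays. None of the 3 overlapped between genotypes, and all 3 were called in each of the 8 fits without 1 array.

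Myoz2 and Myot, genes of the Z-disc, which anchors the thin filaments, had the largest falls of the 35. Of 8 genes of the Z-disc and M-band 7 were called. The median difference of these 8 was -0.85, against -0.87 for all 35. Myoz2 encodes calsarcin-1, the slow and cardiac partner of calcineurin at the Z-disc, and had 6.01, 5.87, 6.00 and 5.96 in null arrays, against 6.98, 7.21, 8.34 and 7.13 in WT arrays. The null arrays were nearly equal, and Myoz2 differed by -1.45 (SE 0.23, limma adjusted p = 0.00498), about 0.365-fold. Its fast-fibre relative Myoz1, at 6.55 to 7.04 in null arrays, against 7.13 to 7.98 in WT arrays, differed by -0.71 (SE 0.19, adjusted p = 0.0366). Myot, which encodes the actin-bundling protein myotilin, had 7.94, 7.60, 7.50 and 7.81 in null arrays, against 8.87, 8.61, 9.42 and 8.84 in WT arrays. It had the smallest adjusted p of the 35 (difference -1.22, SE 0.16, limma adjusted p = 0.00195).

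The α-actinins cross-link actin at the Z-disc, Actn3 in fast fibres and Actn2 in all fibres. Actn2 differed by -0.98 (SE 0.18, limma adjusted p = 0.00876) and Actn3 by -0.90 (SE 0.21, adjusted p = 0.0226), without overlap between genotypes. Actn2 had 7.85 to 8.37 in null arrays, against 8.75 to 9.62 in WT arrays, and Actn3 7.03 to 7.41 in null arrays, against 7.74 to 8.72 in WT arrays. Xirp2, an actin-binding repeat protein of the Z-disc, differed by -0.56 (adjusted p = 0.02) and Myom1, the myomesin of the M-band, by -0.81 (adjusted p = 0.0187). Xirp2 had 6.06 to 6.38 in null arrays, against 6.49 to 7.11 in WT arrays, and Myom1 6.59 to 7.13 in null arrays, against 7.15 to 8.03 in WT arrays. Tcap, telethonin, which caps titin, had 7.87 to 8.24 in null arrays, against 8.17 to 8.80 in WT arrays, overlapped between genotypes and was not called (difference -0.46, SE 0.14, limma adjusted p = 0.06). With the replicate block its adjusted p was 0.0317, and without the sex term it was 0.0478.

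**Figure D4:**
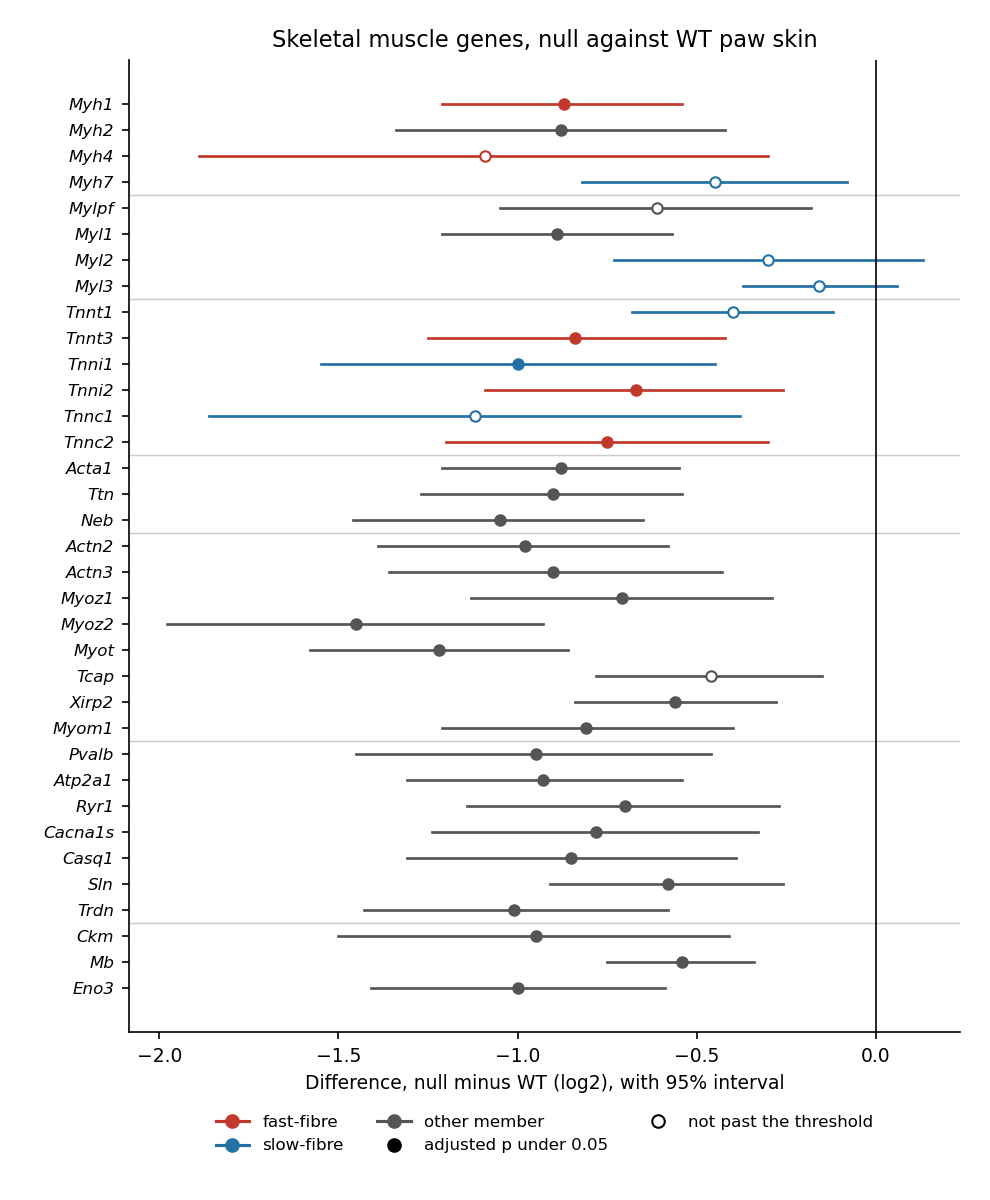
Difference null minus WT (log2, points) with its 95% interval (lines) for the 35 muscle genes, grouped by role; red fast, blue slow, grey other members, filled where the adjusted p was under 0.05. All points lie left of 0, from -1.45 for Myoz2 to -0.16 for Myl3, and only the Myl2 and Myl3 intervals cross 0.

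All 7 calcium-handling genes were called lower. Atp2a1 (SERCA1, the calcium pump of fast fibres) had 10.10, 9.69, 9.45 and 9.82 in null arrays, against 10.66, 10.40, 11.12 and 10.57 in WT arrays. It fell by 0.93 (SE 0.17, limma adjusted p = 0.00922). The release machinery was lower too, the ryanodine receptor gene Ryr1 by -0.70 (SE 0.19, adjusted p = 0.0442), the voltage sensor gene Cacna1s by -0.78 (SE 0.20, adjusted p = 0.0349), the triadin gene Trdn by -1.01 (SE 0.19, adjusted p = 0.00985) and Casq1, the calcium store protein of fast fibres, by -0.85 (SE 0.20, adjusted p = 0.0268). Pvalb, the calcium buffer parvalbumin of fast fibres, differed by -0.95 (SE 0.22, adjusted p = 0.0224). Signals were 7.39 to 7.87 in null arrays, against 7.93 to 8.86 in WT arrays for Ryr1, 6.22 to 6.63 in null arrays, against 6.80 to 7.81 in WT arrays for Cacna1s and 6.39 to 7.13 in null arrays, against 7.44 to 8.21 in WT arrays for Trdn. They were 6.17 to 6.81 in null arrays, against 7.07 to 7.99 in WT arrays for Casq1 and 6.63 to 7.08 in null arrays, against 7.21 to 8.40 in WT arrays for Pvalb. All 7 genes had null arrays entirely under WT arrays. Ryr1 was the nearest to the threshold and kept its call in 4 of the 8 fits without 1 array.

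Sln, sarcolipin, an inhibitor of the calcium pump, followed another order of arrays. It had 6.69, 6.66, 6.21 and 6.29 in null arrays, against 7.07, 6.72, 7.10 and 7.28 in WT arrays. Male null and male WT arrays nearly met, while females were well apart, and over both sexes Sln differed by -0.58 (SE 0.14, limma adjusted p = 0.0303). Its call held in 3 of the 8 fits without 1 array. The difference was -0.22 in males and -0.94 in females, and this gap of 0.73 (SE 0.17) did not pass the threshold over all genes (limma adjusted p = 0.974).

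Energy and oxygen genes were all called lower. Ckm, muscle creatine kinase, had 8.88, 8.19, 7.95 and 8.10 in null arrays, against 9.45, 8.97, 9.75 and 8.76 in WT arrays, with male null 1 just above female WT 2. It fell by 0.95 (SE 0.24, limma adjusted p = 0.0316). Eno3, the muscle enolase of glycolysis, had 8.02 to 8.74 in null arrays, against 9.05 to 9.78 in WT arrays and differed by -1.0 (SE 0.18, adjusted p = 0.00873). Mb, myoglobin, the oxygen store of oxidative fibres, had 7.66, 7.64, 7.54 and 7.56 in null arrays, against 8.26, 8.01, 8.34 and 7.96 in WT arrays. Its difference was smaller, -0.54 (SE 0.09, limma adjusted p = 0.00612), but the null arrays lay close together and apart from WT.

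Differences pointed the same way in both sexes. All 35 differences were below 0 in each sex, with a median of -0.60 in males and -1.04 in females, against -0.01 and 0.03 over all genes. With 2 arrays per group and a spread shared over the 4 groups, 0 members were called in males (smallest adjusted p = 0.0587, 0.616% of all genes called lower) and 15 in females (1.39%). In fits of each sex alone the order was the other way, with 10 members called lower in males (1.26% of all genes) and 3 in females (0.463%). The female difference was the larger in 33 of the 35 genes, but no interaction of sex and genotype was called among the 35 in limma (0 of 35, smallest adjusted p = 0.974), against 0.00651% of all genes. Below 0.05 without adjustment there were 2, Sln and Tnnt1, against 4.26% of all genes. Without female WT 1 the female median was -0.63 and the female difference was the larger in 22 of the 35. The larger female difference thus moved with 1 array, and only without female WT 2 was an interaction called, in Tnni1 (1.41, limma adjusted p = 0.0218).

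Other muscle genes, in 9 lists of skeletal muscle functions, had a median below 0 in each list, though single genes went either way. Medians were close to 0 for myogenic regulators and satellite cells (-0.05), atrophy (-0.11), further slow-fibre (-0.16) and embryonic and regeneration genes (-0.19). Of 96 measured genes 53 were called lower and 3 higher, with a median of -0.50. Over all genes 5.98% were called lower and 7.06% higher, the shares to set beside the counts of each list. Genes called higher were thus a smaller share of these lists than of all genes. Among 23 further sarcomere and structure genes 18 were called lower, led by the muscle chaperone gene Hspb7 (-1.56, SE 0.14, limma adjusted p = 0.000272) and Nrap, of myofibril assembly (-1.09, adjusted p = 0.012). Of 12 further triad and calcium genes 8 were called lower, with Tmem38a, an ion channel of the sarcoplasmic reticulum, at -1.03 and the kinase gene Mylk4 at -0.94. Of 9 further fast-fibre and glycolytic genes 7 were called lower, with the muscle AMP deaminase gene Ampd1 at -1.33 and the muscle glycogen phosphorylase gene Pygm at -1.07. Of 10 muscle metabolism genes 5 were lower, with the respiratory chain genes Cox6a2 (-0.93) and Cox7a1 (-0.92), and 1 was higher, the hexokinase gene Hk2 (0.74, adjusted p = 0.000288), which other tissues also express.

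Of 8 further slow-fibre genes 3 were called lower, with Csrp3, a Z-disc protein, at -1.27 (adjusted p = 0.00705 in limma) and Fhl1 at -0.79. The calcium pump gene Atp2a2 was called higher (0.27, adjusted p = 0.0191); its pump SERCA2 serves slow fibres but also skin, where it is the gene of Darier disease. Neuromuscular junction genes were called lower in 6 of 9, with the acetylcholinesterase gene Ache at -1.03 (adjusted p = 0.00115) and the receptor kinase gene Musk at -0.91 (adjusted p = 0.005). Of 9 myogenic regulators and satellite cell genes 2 were called lower, Myf6, the regulator of mature fibres (-0.91, adjusted p = 0.0477), and Mef2c (-0.66, adjusted p = 0.0374). The satellite cell gene Pax7 differed by -0.03 and the regulators Myod1 by -0.15 and Myog by -0.07, none of them called. The mean signal of this list was only 4.67 to 4.75 in null arrays, against 4.68 to 5.15 in WT arrays, and 2 of its 9 genes were under the negative control median in all arrays, so a change in such genes could go unseen.

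Embryonic and regeneration genes were called lower in 3 of 8, Chrna1 (-0.65), Myh8 (-0.48) and Myh3 (-0.47), of the acetylcholine receptor and developmental myosins. Of 8 atrophy genes Foxo1 was called lower (-0.37, adjusted p = 0.0182 in limma) and Runx1 higher (0.40, adjusted p = 0.0362), while the ubiquitin ligase genes Fbxo32 and Trim63 differed by -0.26 and -0.30, not called. Runx1 is also a gene of epidermis and immune cells. Which cells gave the calls of Hk2, Atp2a2 and Runx1, or those of the genes called lower, was not tested.

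**Figure D5:**
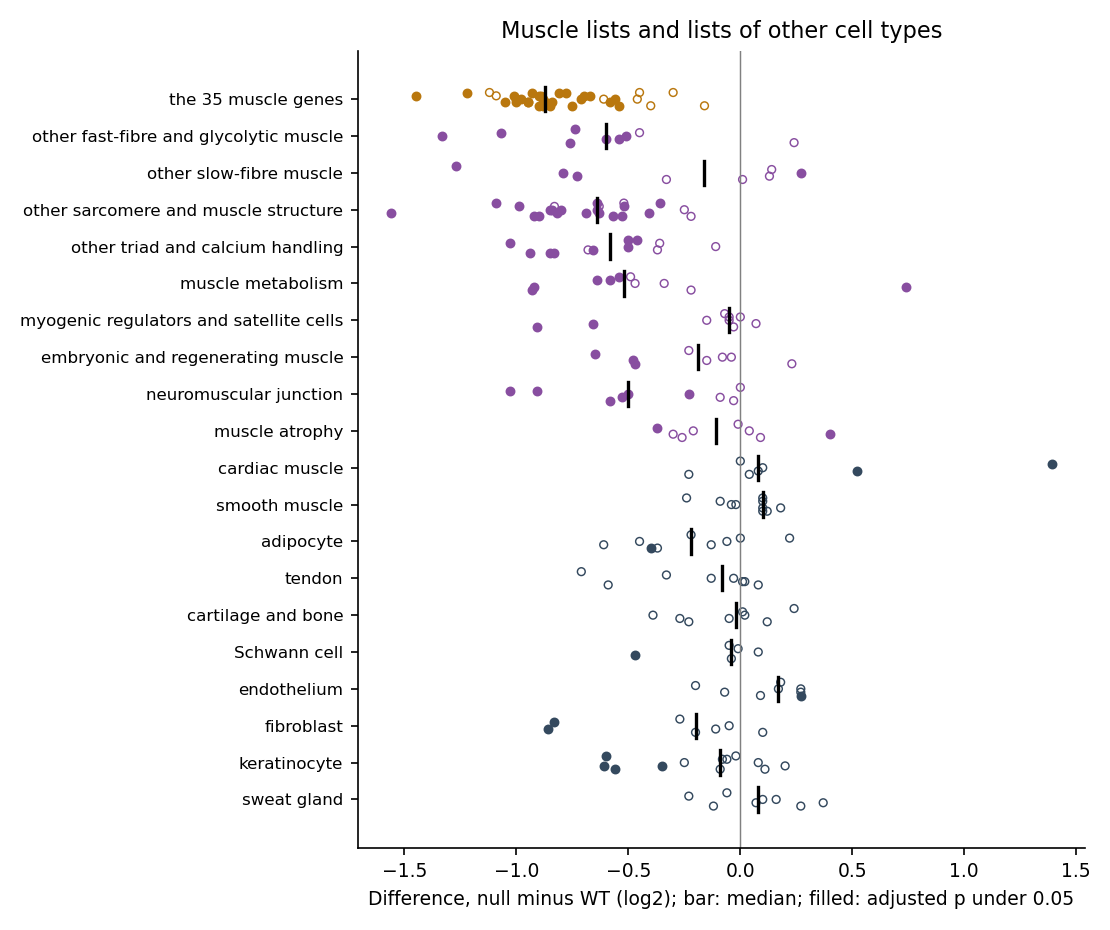
Difference null minus WT (log2) of every measured gene in the 35 muscle genes, 9 other muscle lists and 10 lists of other cell types, with a bar at the median and filled points where the adjusted p was under 0.05. The 35 genes have their median at -0.87. Medians of the other muscle lists run between -0.64 and -0.05, and those of other cell types between -0.22 and 0.17.

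Lists of other cell types had medians nearer to 0 than the 35 genes, at -0.22 to 0.17, against -0.87. They overlapped with the other muscle lists, whose medians were -0.64 to -0.05. Adipocyte genes had a median of -0.22 and fibroblast genes one of -0.20. Smooth muscle had 0 of 10 genes called in limma, with Synm at -0.24 and Myh11 at 0.18, a median of 0.10 and a mean signal of 6.49 to 6.58 in null arrays, against 6.36 to 6.56 in WT arrays. Tendon had 0 of 8 called (Tnmd -0.59, Comp -0.71, median -0.08, mean signal 5.58 to 6.36 in null arrays, against 5.51 to 6.36 in WT arrays), and cartilage and bone 0 of 8 (Col2a1 0.12, Acan -0.27, median -0.02). Adipocyte genes had 1 of 9 called, the lipid droplet gene Plin4 (-0.40), with a mean of 5.31 to 5.61 in null arrays, against 5.55 to 6.19 in WT arrays. Fibroblast genes had 2 of 7 called lower, the matrix genes Dpt (-0.86) and Dcn (-0.83), with a mean of 8.32 to 8.92 in null arrays, against 8.61 to 9.12 in WT arrays. Keratinocyte genes had 4 of 12 called lower, the hemidesmosome gene Col17a1 (-0.61, adjusted p = 0.000296 in limma), the keratin genes Krt2 (-0.60, adjusted p = 0.000926) and Krt15 (-0.56), and Lor (-0.35), the loricrin of the cornified envelope. The median of that list was -0.09, and its mean signal was 10.66 to 10.77 in null arrays, against 10.75 to 11.01 in WT arrays. In the adipocyte, fibroblast and keratinocyte lists the share called lower was above the 5.98% of all genes. Below 0.05 without adjustment, where 26.6% of all genes lay, there were 1 of 10 smooth muscle, 0 of 8 tendon, 0 of 8 cartilage and bone, 2 of 8 sweat gland, 1 of 5 Schwann cell, 2 of 9 adipocyte, 2 of 7 fibroblast, 3 of 7 cardiac, 5 of 12 keratinocyte and 5 of 8 endothelial genes. The part of these cells in the muscle result was not tested.

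Of 5 Schwann cell genes 1 was called lower, Pmp22 (-0.47), and of 8 endothelial genes 1 was called higher, Pecam1 (0.27). Over all genes 5.98% were called lower and 7.06% higher. The endothelial genes Cdh5, Kdr, Tie1 and Esam had differences of 0.27, 0.27, 0.18 and 0.17 that were not called. Of 8 sweat gland genes 0 were called in limma, with Krt8 at 0.37 and Aqp5 at -0.23. Cardiac muscle genes had 2 of 7 called higher, the natriuretic peptide gene Nppb (1.39, adjusted p = 0.00607 in limma) and the atrial light chain gene Myl7 (0.52, adjusted p = 0.00376), with 2 of the 7 under the negative control median in all arrays. The cardiac sarcomere genes Myh6, Tnni3 and Mybpc3 differed by -0.23, 0.08 and 0.00, none of them called.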

How the data were processed

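Total RNA of forepaw skin from 8 mice was labelled with the Affymetrix WT PLUS kit, per the labels' protocols. The deposited log2 values came from the authors' use of RMA and Partek, per the submitters' processing notes; versions, settings, genome build and annotation were not given in the sources used here. RMA compresses large differences.

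Of 72688 probe sets 6732 controls were left out. Probe sets with 1 gene symbol after updating by RefSeq (GRCm38.p6, for names only) gave 30701 genes, and where a gene had several probe sets (442 genes) the brightest was used. limma 3.58.1 in R 4.3.3 fitted genotype and sex (lmFit, eBayes with an intensity trend, 5 residual degrees of freedom); the interaction came from 4 group means. Benjamini-Hochberg adjustment ran over all genes. The fit was tested on simulated data. No dim gene was filtered. Array medians were 3.97 to 4.03, and the number of arrays limits precision. Tables and plots used Python 3.11.15 with numpy 2.4.6, pandas 2.3.3 and matplotlib 3.10.9.

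After group means were removed, the correlation of same-numbered null and WT mice across genes was 0.316 for males and 0.115 for females, over the limit of 0.1, so pairs were tried as a block; the labels do not say what a number shares. Members and lists were chosen with earlier results of these data known. All members are named, and from each list up to 2 falls and 2 rises among called genes, or the 2 with the smallest p; other genes named (Myod1, Pax7, Myog, Myh3, Fbxo32, Trim63, Myh6, Tnni3, Mybpc3, Krt15, Lor, Cdh5, Kdr, Tie1, Esam) were picked after their values were seen. No protein sequence was used here.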

Additional observations from a re-analysis of the deposited data

Results flagged for a closer look

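In groups of 4 arrays, an array was singled out where its gap to the nearest array passed Dixon's 95% critical value as a share of the group's range. Of 86 such groups 7 met this, and chance gives about 1 in 20. In 6 of them the array was female WT 1: Acta1 (10.64, against 10.04 to 10.12 in the other WT arrays), Myh2 (11.08, against 10.05 to 10.15), Tnni1 (7.54, against 6.36 to 6.53), Myl1 (9.37, against 8.93 to 8.99), Myoz2 (8.34, against 6.98 to 7.21) and Mylpf minus Myl2 (-0.15, against 0.04 to 0.07). These flags share 1 array and are not independent of each other. The other was Tnnc2 in male null 1 (8.97, against 8.39 to 8.48 in the other null arrays). Without female WT 1 the median difference of the 35 genes was -0.67.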

How the results depend on the processing

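Every one of the 35 differences stayed below 0 in each of the 8 fits without 1 array. The number called lower was 27, with 5.98% of all genes called lower. Over those fits it ran between 12 (2.75%, without female null 1) and 30 (4.98%, without female WT 2). It was 16 with a robust prior (6.02% of all genes called lower). In fits of each sex alone it was 10 for males (1.26%) and 3 for females (0.463%). Without the sex term it was 28 (6.28%), after repeated quantile normalization 25 (6.65%), after median centring 27 (5.04%) and with array weights 30 (7.87%). Leaving out genes under the median level raised the share of all genes called lower to 12.8%, as fewer genes were tested. The slow median was -1.0 without genes under the median level or without members less than 1 log2 unit over the negative controls. Members with an interaction numbered 0 to 1 over the fits without 1 array. With the replicate block 30 members were called lower (6.58% of all genes), Myh4, Tnnc1 and Tcap being added, and it ended no call. The fast minus slow mean ran between -0.44 and -0.20 without 1 array.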
